A study of Mus musculus with 47 samples.

Results

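At birth (P0), Kcnj2 was the one gene that passed the test between mice labelled for Kir2.1 and wild-type mice, out of 17095 genes tested in the olfactory epithelium. The 4 Kir2.1 libraries were compared with the 4 wild-type libraries of that age, 8 of the 47 libraries of a series that runs from P0 to P21 over 7 ages. Each library holds polyadenylated RNA of dissected olfactory epithelium, the nasal tissue that carries the odor-sensing neurons. Libraries were placed in groups by their titles.

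The strain label is C57BL/6J for the wild-type libraries (WT) and OIVT;Kir2.1 for the others (Kir). The sources used here give neither the meaning of OIVT nor the promoter behind the Kir2.1 construct. The controls are C57BL/6J mice, so a difference between the groups cannot be told apart into parts from the driver, the strain background and the channel. Whether the libraries are separate animals is not stated, so the spread on which p-values rest may be partly technical. The title of WT P0 replicate 3 says P0 while its stage label says P3. Values without it are given for the counts of genes called and for S100a5, and the results for gene lists include it. All 8 libraries have the same title prefix, cry4.

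Kir2.1, the product of Kcnj2, is an inwardly rectifying potassium channel that holds the membrane near the potassium equilibrium potential, and its added expression is a genetic means of lowering the excitability of neurons. Olfactory sensory neurons each express 1 odorant receptor gene, and signal through the G protein subunit encoded by Gnal, the adenylyl cyclase encoded by Adcy3 and a cyclic nucleotide-gated channel that contains the product of Cnga2. In these neurons the level of some genes, among them S100a5, Kirrel2 and Pcdh10, is known to follow receptor signalling and neuronal activity.

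Gene counts per library ran from 9684661 to 13945732. No 2 replicates were alike within sampling noise: over pairs within groups, the squared count difference per gene was 12.91 to 51.28 times its sampling variance. In a principal component analysis, 2 libraries stood apart. WT P0 replicate 1 lay at -72.1 on the first component (31.4% of the variance), where the other 7 lay between -9.22 and 35.8, and Kir P0 replicate 4 lay at 66.9 on the second (24.1%), where the others lay between -24.4 and 3.12. These libraries also held the most RNA of brain, and of muscle, squamous epithelium and bone, and each main count is given with and without them. Omp and Gnal, defining genes of the labelled tissue, were present in all 8 libraries, at 163 to 405 and 215 to 598 CPM (counts scaled to a common, normalized library size).

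Kcnj2 (ENSMUSG00000041695, chromosome 11, 111066164 to 111076821 on mm10, plus strand) was measured at 59.0, 51.0, 53.2 and 49.9 CPM in WT and at 523, 636, 566 and 436 CPM in Kir. All 4 Kir libraries were far above the 4 WT libraries, and the spread within each group was small beside the gap. The means were 53.3 ± 4.06 CPM (SD, n = 4) and 540.4 ± 83.6 CPM (SD, n = 4), a ratio of 10.1. The fitted log2 fold change was 3.34 ± 0.13 (SE), with an adjusted p of 1.2e-05 by edgeR's quasi-likelihood test with Benjamini-Hochberg adjustment. An exact permutation test of the 8 values, two-sided, gave p = 0.0286, the smallest that 4 against 4 can give. The counts do not tell the gene's own transcripts from those of a construct.

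Kcnj2 made up 0.00585% of the genes tested, and 0% were called lower. At an unadjusted p below 0.05 there were 598 genes (3.5%), 261 higher in Kir (1.53%) and 337 lower (1.97%). In 140 genes (0.819%) the 4 Kir libraries all lay above the 4 WT libraries, and in 180 (1.05%) all below. DESeq2 called 16 genes, 9 higher (0.0325% of 27718) and 7 lower (0.0253%). Without WT P0 replicate 1 and Kir P0 replicate 4 it called 6: Kcnj2, S100a5, Sgk1, Rptn, Gm13328 and Gm13935. The edgeR count was 1 gene, Kcnj2, when WT P0 replicate 3 was left out, and also when WT P0 replicate 1 and Kir P0 replicate 4 were both left out. Without WT P0 replicate 4 it was 3, with Col10a1 and Pth1r, genes of hypertrophic cartilage and bone, added on the higher side. The fit over all 47 libraries, which takes its spread from all ages, called 77 of 19927 genes higher (0.386%) and 141 lower (0.708%) at P0, and 1 higher and 18 lower without WT P0 replicate 1 and Kir P0 replicate 4, of which 3 were among the 218 called with them.

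S100a5 (ENSMUSG00000001023, chromosome 3, 90608523 to 90611780, plus strand), a calcium-binding protein of mature sensory neurons, was measured at 53.0, 109, 98.1 and 76.4 CPM in WT and at 20.6, 36.9, 32.7 and 16.8 CPM in Kir. The lowest WT library was above the highest Kir library. The means were 84.0 ± 24.6 CPM (SD, n = 4) and 26.8 ± 9.60 CPM (SD, n = 4), and the ratio of Kir to WT was 0.319. The log2 fold change was -1.65 ± 0.28 (SE). The edgeR p was 2.16e-04 before adjustment and 0.616 after it, so the gene did not pass. DESeq2 gave an adjusted p of 1.77e-04, and the edgeR fit over all 47 libraries one of 0.00133. The exact permutation p over the 8 values was 0.0286, the smallest possible. Leaving out WT P0 replicate 3, the log2 fold change was -1.56 with an adjusted p of 1 by edgeR, and without WT P0 replicate 1 and Kir P0 replicate 4 it was -1.65 with an adjusted p of 0.41.

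**Figure D1:**
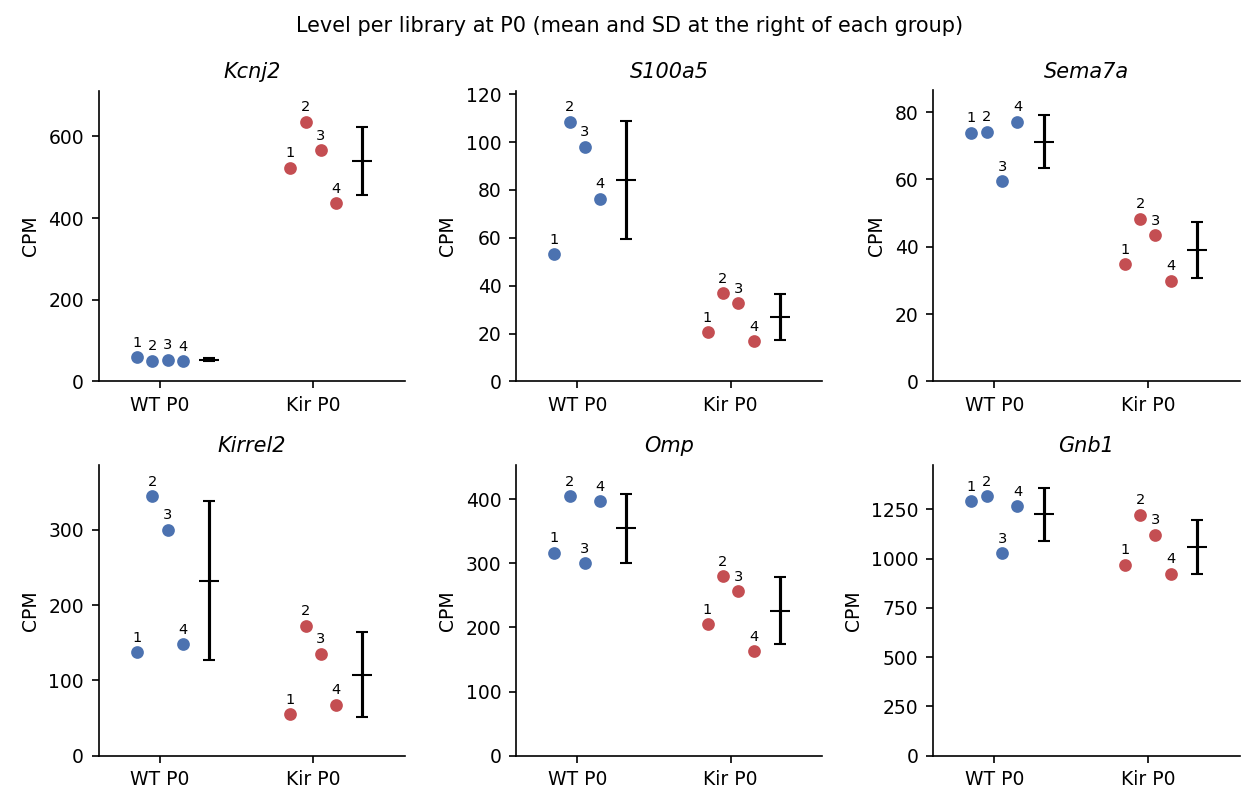
Level of 6 genes in each P0 library, in CPM on linear axes from 0; points are libraries, numbered by replicate, and bars at the right of each group are mean and SD. Kcnj2 and S100a5 do not overlap between the groups, nor do Sema7a and Omp, while Kirrel2 and Gnb1 do.

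The activity-linked genes of sensory neurons, S100a5 among them, mostly lay lower in Kir. None of the 16 tested was called by edgeR on the 8 libraries. The fit over all 47 called 4 lower, where 0.708% of all genes were. Without WT P0 replicate 1 and Kir P0 replicate 4 that fit called S100a5 and none of the list's other genes named below. Of the 16, 8 were lower at an unadjusted p below 0.05, where 1.97% of all genes were. In 5 (31.2%) all 4 Kir libraries lay below all 4 WT libraries, as in 1.05% of all genes. The median log2 fold change of the list was -0.47, against 0.00121 over all genes tested. The summed level of the list was 1029.9 to 1418.2 CPM in WT and 568.3 to 1022.9 CPM in Kir, with no overlap. Leaving out WT P0 replicate 1 and Kir P0 replicate 4, 6 of 16 were lower at that p, 5 lay wholly below and 2 wholly above, where 1.41%, 2.75% and 2.48% of all genes did, and the median was -0.45.

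Sema7a, a membrane-anchored semaphorin of sensory axons that takes part in synapse formation in the olfactory bulb, stood at 73.9, 74.1, 59.5 and 77.1 CPM in WT and at 34.9, 48.3, 43.5 and 29.9 CPM in Kir. Every Kir library was below every WT library, with a log2 fold change of -0.86 ± 0.16 (SE). Its adjusted p was 0.731 by edgeR and 0.00818 by DESeq2. Gucy1b2, a soluble guanylate cyclase subunit found in a small set of nasal sensory neurons, stood at 4.20, 5.23, 3.76 and 9.71 CPM in WT and at 2.73, 1.48, 1.02 and 0.97 CPM in Kir. Its log2 fold change was -1.89 ± 0.42 (SE), with an adjusted p of 1 by edgeR and 0.0374 by DESeq2. Without WT P0 replicate 1 and Kir P0 replicate 4, DESeq2 called neither Sema7a nor Gucy1b2. Sema7a and Gucy1b2, like the other genes given by value in this list, were chosen after their values were seen, apart from S100a5, Pcdh10 and Hist2h2be.

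The pair of adjoining genes Nphs1 and Kirrel2 on chromosome 7 encode adhesion molecules that bind each other in the kidney, and Kirrel2 takes part in the sorting of sensory axons. Nphs1 stood at 1.95 to 4.07 CPM in WT and at 0.73 to 1.67 CPM in Kir, without overlap, a log2 fold change of -1.50 ± 0.37 (SE). Kirrel2 stood at 137, 345, 300 and 148 CPM in WT and at 54.9, 173, 136 and 67.5 CPM in Kir. The WT values fell into a higher and a lower pair, and Kir P0 replicate 2 lay above the lower pair, so the groups overlapped at a log2 fold change of -1.11 ± 0.41 (SE). Pcdh10, a protocadherin of sensory axons, stood at 268, 290, 265 and 144 CPM in WT and at 54.7, 214, 149 and 100.5 CPM in Kir. WT P0 replicate 4 lay below 2 of the Kir libraries, and the log2 fold change was -0.90 ± 0.37 (SE).

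Lrrc3b, a leucine-rich repeat protein, lay at 17.9 to 28.9 CPM in WT and 10.1 to 17.6 CPM in Kir, with a log2 fold change of -0.54 ± 0.23 (SE). Pcp4l1, a small protein related to the calmodulin-binding Pcp4, had a log2 fold change of -0.51 ± 0.19 (SE) and overlapping groups. Hist2h2be, the histone H2B variant linked to low activity and short life of sensory neurons, stood at 174 to 264 CPM in WT and 113 to 195 CPM in Kir. The Hist2h2be groups overlapped, with a log2 fold change of -0.38 ± 0.19 (SE). The list was not split by the direction in which activity moves its members, and Hist2h2be was counted with the rest. Of Nphs1, Kirrel2, Pcdh10, Lrrc3b, Pcp4l1 and Hist2h2be, none passed by DESeq2 or by edgeR on the 8 libraries, and Nphs1 passed in the fit over all 47 (adjusted p 0.0393 by edgeR). That fit did not call Nphs1 without WT P0 replicate 1 and Kir P0 replicate 4.

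Genes of mature sensory neurons in general also lay lower in Kir. None of the 25 tested was called by edgeR on the 8 libraries. The fit over all 47 called 3 lower, where 0.708% of all genes were. Without WT P0 replicate 1 and Kir P0 replicate 4 that fit called none of the members named below. At an unadjusted p below 0.05, 8 were lower, where 1.97% of all genes were. Of the 25 tested, 24 had a log2 fold change below 0, and the median of the list was -0.44. In the plot of fold changes, 3 of them (12%) have all Kir libraries below all WT libraries, as have 1.05% of all genes. In bulk tissue, fewer neurons and less RNA per neuron cannot be told apart. The summed level of the list overlapped between the groups, at 4604.1 to 6034.4 CPM in WT and 3162.3 to 5294.2 CPM in Kir, and Kir P0 replicate 4 was the lowest. In the fit without WT P0 replicate 1 and Kir P0 replicate 4, 4 of 25 were lower at that p, where 1.41% of all genes were, and the median was -0.37.

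Omp, olfactory marker protein, a cytoplasmic protein that marks mature sensory neurons, stood at 316, 405, 299.7 and 396 CPM in WT and at 205, 279.6, 257 and 163 CPM in Kir. The groups did not overlap, with a log2 fold change of -0.65 ± 0.18 (SE) and an adjusted p of 1 by edgeR. Pde1c, a calcium-dependent phosphodiesterase of the cilia, stood at 102 to 126 CPM in WT and 57.2 to 88.8 CPM in Kir (log2 fold change -0.58 ± 0.15, SE). Umodl1, which carries uromodulin-like domains, stood at 219.8 to 314 CPM in WT and 153 to 212 CPM in Kir (log2 fold change -0.56 ± 0.16, SE). Omp, Pde1c and Umodl1 were named after their values were seen.

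Gnal, the olfactory G protein alpha subunit, stood at 412 to 598 CPM in WT and 215 to 467 CPM in Kir, with overlap and a log2 fold change of -0.60 ± 0.22 (SE). Gnb1, a G protein beta subunit made in many cell types, stood at 1027 to 1318 CPM in WT and 924 to 1222 CPM in Kir, with a log2 fold change of -0.21 ± 0.14 (SE). Gnal and Gnb1 are the members of highest level on the list.

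**Figure D2:**
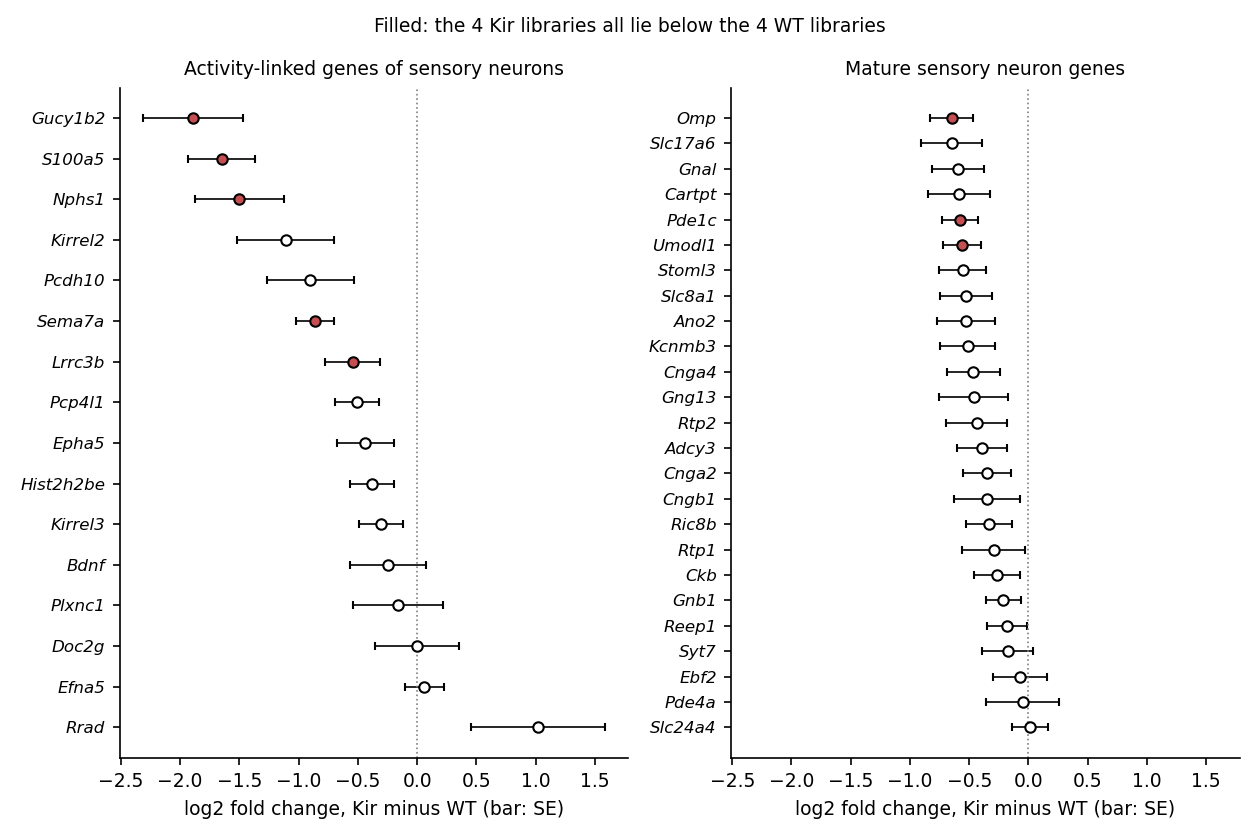
Log2 fold change, Kir minus WT at P0, with its SE, for the 16 activity-linked and the 25 mature sensory neuron genes tested; filled points are genes whose 4 Kir libraries all lie below the 4 WT libraries. Most points lie left of 0, with medians of -0.47 and -0.44, and S100a5 and Gucy1b2 lie farthest to the left among the filled points.

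Ratios to Omp within each library compare a gene with the mature neuron marker; these 4 ratios were chosen after the values were seen. The ratio of S100a5 to Omp was 0.168, 0.268, 0.327 and 0.193 in WT and 0.1, 0.132, 0.128 and 0.103 in Kir. The 4 Kir ratios lay below the 4 WT ratios (exact permutation p = 0.0286, two-sided, the smallest possible; 0.0762 after Benjamini-Hochberg adjustment over the 4 ratios). For Sema7a the ratios were 0.183 to 0.234 in WT and 0.169 to 0.183 in Kir (exact permutation p = 0.0571, adjusted 0.0762), and for Kirrel2 they overlapped widely (exact permutation p = 0.286). The summed odorant receptors per Omp went the other way, at 5.01 to 5.51 in WT and 5.45 to 6.51 in Kir (exact permutation p = 0.0571, adjusted 0.0762).

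Odorant receptor genes lay lower in Kir as a group. No receptor was called by edgeR on the 8 libraries, 1 was by DESeq2 (Olfr19), and 19 of 991 were by the edgeR fit over all 47 libraries (0 without WT P0 replicate 1 and Kir P0 replicate 4), where 0.708% of all genes were called lower. Of 1094 receptor genes listed, 597 passed the filter on low counts and 19 had no count in any of the 8 libraries. Of those tested, 107 were lower and 0 higher at an unadjusted p below 0.05, against 1.97% and 1.53% of all genes. In 69, or 11.6%, the 4 Kir libraries all lay below the 4 WT libraries, against 1.05% of all genes, and in 0 all above. The median log2 fold change was -0.46, and 553 had a value below 0. Receptors share sequence, and reads that mapped to several places were left out of the gene counts, so the values of near-identical receptors are uncertain.

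The summed receptor level was 1604, 2233, 1501 and 2116 CPM in WT and 1332, 1678, 1483 and 889 CPM in Kir. Kir P0 replicate 2 lay above 2 of the WT libraries, so the groups overlapped, and Kir P0 replicate 4, the library with the most RNA of other tissues, was the lowest. With WT P0 replicate 1 and Kir P0 replicate 4 left out, 638 receptors were tested, 85 of them (13.3%) were lower at an unadjusted p below 0.05, against 1.41% of all genes in that fit. In 111 (17.4%) the remaining Kir libraries lay wholly below, against 2.75% of all genes, and the median was -0.38.

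Olfr19, the receptor of smallest p, stood at 5.01, 5.14, 3.03 and 4.42 CPM in WT and at 1.36, 2.04, 1.96 and 1.32 CPM in Kir. The log2 fold change was -1.39 ± 0.28 (SE), with an adjusted p of 0.861 by edgeR and 0.0441 by DESeq2. Without WT P0 replicate 1 and Kir P0 replicate 4, DESeq2 did not call Olfr19. The next by p were Olfr146 (-1.27 ± 0.27) and Olfr1454 (-1.59 ± 0.36, log2 fold change ± SE), also without overlap. These 3 receptors were picked for their p and so are at the low end of the list. The receptors of highest level showed smaller differences: Olfr536 stood at 18.2 to 30.3 CPM in WT and 17.2 to 22.3 CPM in Kir, and Olfr15 at 15.8 to 30.4 CPM in WT and 9.50 to 22.1 CPM in Kir. Of 15 trace amine receptor genes, a second family of olfactory receptors, 3 were tested and 0 called; Taar6 and Taar7d, the highest, lay at 0.53 to 3.37 CPM in all libraries.

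**Figure D3:**
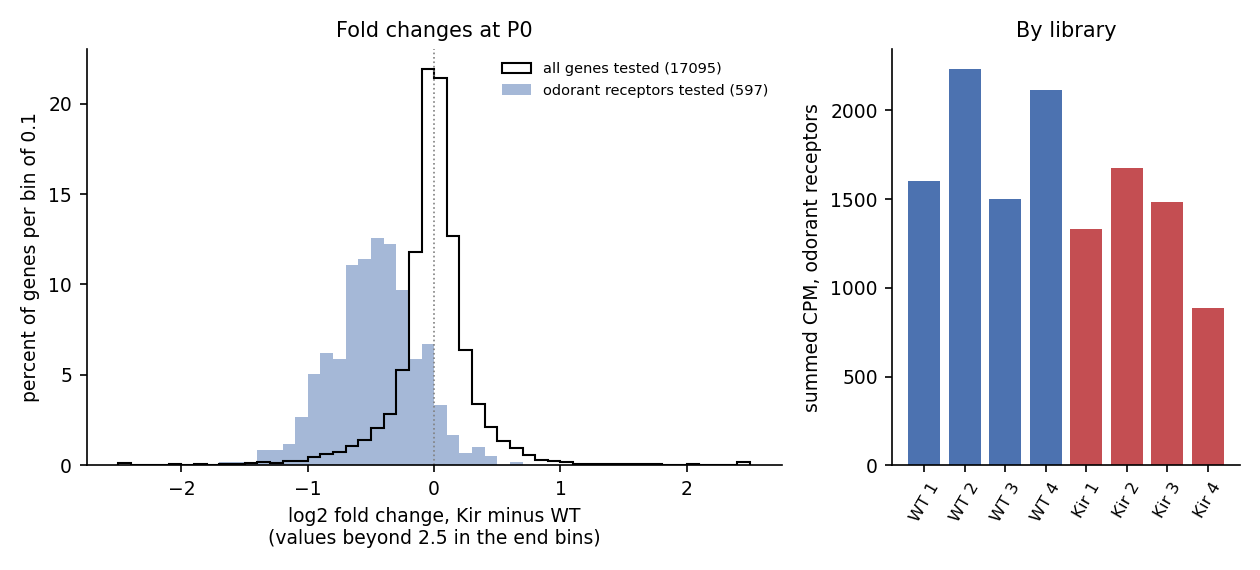
Left, distribution of log2 fold changes, Kir minus WT at P0, for all 17095 genes tested (line) and the 597 odorant receptors tested (filled), as percent of genes per bin; right, summed receptor CPM in each library, with bars from 0. The receptor distribution is centred at a median of -0.46, and the lowest bar is Kir P0 replicate 4 at 889 CPM.

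Genes of other steps in the neuronal lineage and of supporting cells gave no call by edgeR on the 8 libraries. The fit over all 47 called 2 of 22 immature neuron genes and 1 of 22 axon guidance genes lower, where 0.708% of all genes were. It called 1 of 12 microvillous cell genes higher, where 0.386% of all genes were. Without WT P0 replicate 1 and Kir P0 replicate 4, Kcnj2 was the only gene that fit called higher. Among 22 immature neuron genes, 1 was lower at an unadjusted p below 0.05 on the 8 libraries, where 1.97% of all genes were, and the median log2 fold change was -0.18. Without WT P0 replicate 1 and Kir P0 replicate 4, 0 were lower at that p and the median was 0.03. Among 15 genes of odorant receptor choice, which include regulators of the receptor gene loci, 0 reached that p, and the median was 0.01. Among 22 axon guidance genes 1 was lower at that p, where 1.97% of all genes were. It was Epha7, an ephrin receptor, at 32.4 to 43.5 CPM in WT and 24.2 to 30.9 CPM in Kir (log2 fold change -0.52 ± 0.14, SE; named after its values were seen). The edgeR fit over all ages did not call Epha7 without WT P0 replicate 1 and Kir P0 replicate 4. Progenitor genes (13 of globose basal cells, 13 of horizontal basal cells), 19 sustentacular cell genes and 19 immediate early genes, the fast transcriptional targets of activity and stress, gave 0 at that p. The summed level of immediate early genes was 509.8 to 737.2 CPM in WT and 520.1 to 763.9 CPM in Kir.

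No other inward rectifier passed edgeR's test on the 8 libraries. Of 14 such genes, 9 were tested. The fit over all 47 tested 11 and called 1 lower, where 0.708% of all genes were called lower. Without WT P0 replicate 1 and Kir P0 replicate 4, that fit called no inward rectifier lower. Kcnj15 stood at 50.8 to 95.7 CPM in WT and 49.3 to 80.9 CPM in Kir, and Kcnj16 at 21.99 to 41.9 and 31.8 to 43.9 CPM, in overlapping groups. Kcnj5, a subunit of G protein-gated channels, stood at 21.4 to 34.6 CPM in WT and 19.4 to 47.01 CPM in Kir, a log2 fold change of 0.46 ± 0.28 (SE). Of 23 other potassium channel genes listed and tested, 0 were called by edgeR on the 8 libraries. The fit over all 47 called 2 lower, where 0.708% of all genes were. At an unadjusted p below 0.05, 3 were lower, where 1.97% of all genes were, and the median log2 fold change was -0.19. Without WT P0 replicate 1 and Kir P0 replicate 4, 1 was lower at that p, where 1.41% of all genes were, and the median was 0.000443. Of 22 sodium and calcium channel genes tested on the 8 libraries, 0 reached that p.

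Outside that list, Kcng1, a modifier subunit of voltage-gated potassium channels, stood at 23.04, 36.9, 26.7 and 21.2 CPM in WT and at 6.10, 15.2, 13.5 and 9.59 CPM in Kir. The groups did not overlap, at a log2 fold change of -1.28 ± 0.28 (SE) and an adjusted p of 1 by edgeR and 0.0318 by DESeq2. Nqo1, a quinone reductase found in a zone of sensory neurons, stood at 88.6 to 159 CPM in WT and 46.1 to 75.5 CPM in Kir (log2 fold change -1.01 ± 0.21, SE; adjusted p 0.994 by edgeR, 0.0227 by DESeq2). Vsnl1, a neuronal calcium sensor, stood at 15.03 to 20.9 CPM in WT and 6.69 to 11.8 CPM in Kir (log2 fold change -0.91 ± 0.20, SE; adjusted p 1 by edgeR, 0.0489 by DESeq2). Pcsk1, the prohormone convertase, lay at 17.5 to 26.6 CPM in WT and 6.95 to 14.5 CPM in Kir (log2 fold change -0.93 ± 0.24, SE). These 4 genes were named after their values were seen, and DESeq2 called none of them without WT P0 replicate 1 and Kir P0 replicate 4.

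RNA of tissues next to the olfactory epithelium was unevenly spread over the libraries. Skeletal muscle genes summed to 2890 CPM in Kir P0 replicate 4 and to 26.3 to 55.5 CPM in the other 7 libraries. Acta1, skeletal muscle actin, stood at 689 CPM in Kir P0 replicate 4 and at 0.91 to 7.28 CPM elsewhere, and Myh8, the perinatal myosin heavy chain, at 463 CPM against 0 to 3.55 CPM. Mylpf, a fast-muscle myosin light chain, stood at 371 CPM against 1.23 to 3.99 CPM. Genes of squamous, keratinized epithelium summed to 8778 CPM in Kir P0 replicate 4, to 1041 and 286 CPM in WT P0 replicates 3 and 4, and to 54 to 72 CPM in the other 5; Krt13 and Krt4, keratins of moist squamous epithelium, stood at 4001 and 2963 CPM in Kir P0 replicate 4. Bone genes summed to 4129 CPM there against 424 to 1270 CPM elsewhere, and fibroblast genes to 10722 CPM against 2420 to 5259 CPM.

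Brain genes marked the other library that stood apart. Brain neuron genes summed to 1295 CPM in WT P0 replicate 1 against 387 to 656 CPM elsewhere, and Slc17a7, the vesicular glutamate transporter of cortical and bulbar neurons, stood at 164 CPM against 0.61 to 2.5 CPM. Glial genes summed to 1667 CPM there against 642 to 1090 CPM, and Fabp7, a lipid-binding protein of radial and ensheathing glia, stood at 435 CPM against 20.4 to 130.2 CPM. Cartilage genes were uneven within both groups, summing to 310 CPM in WT P0 replicate 1 and 12479 CPM in WT P0 replicate 4, and to 1243 CPM in Kir P0 replicate 4 and 14357 CPM in Kir P0 replicate 1. Of 17 cartilage genes 0 reached an unadjusted p below 0.05, and 16 had a log2 fold change above 0, with a median of 0.55 that was 0.54 without WT P0 replicate 1 and Kir P0 replicate 4. In that fit the median was 0.58 for bone genes, where it had been 1.79, and 0.36 for fibroblast genes, where it had been 0.87.

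For muscle and brain neuron genes the direction turned on a single library. Acta1 had a log2 fold change of 5.43 ± 1.71 (SE) over all 8 libraries and -0.65 without Kir P0 replicate 4, and Slc17a7 one of -4.81 ± 1.58 (SE) and 0.16 without WT P0 replicate 1. None was called by the test on the 8 libraries. In the fit over all 47 libraries, which called 0.386% of all genes higher and 0.708% lower in Kir at P0, 14 of 20 skeletal muscle genes were called higher, and 6 of 15 brain neuron genes, 4 of 15 glial genes and 19 of 991 odorant receptors lower; without WT P0 replicate 1 and Kir P0 replicate 4 each of these counts was 0. Without those libraries that fit called 18 genes lower, S100a5 and Sgk1 among them and also Krt1, Krt10, Lor, Flg, Sprr1a and Hrnr, genes of cornified squamous epithelium, whose list stood at 1041 and 286 CPM in WT P0 replicates 3 and 4.

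**Figure D4:**
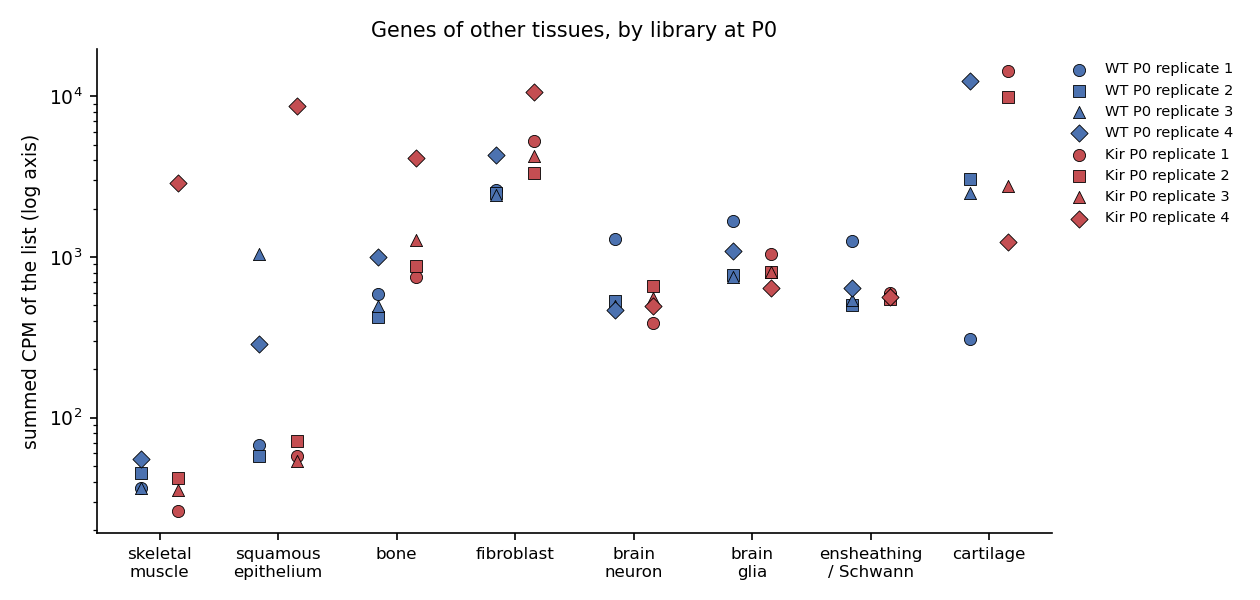
Summed CPM of 8 gene lists of tissues other than the sensory epithelium in each P0 library, on a log axis; colour marks the group and the marker shape the replicate. Kir P0 replicate 4 is highest for skeletal muscle (2890 CPM), squamous epithelium, bone and fibroblasts, and WT P0 replicate 1 for brain neurons (1295 CPM), glia and ensheathing or Schwann cells.

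Some genes higher in Kir with small p are known from mesenchyme and bone, and are given here by choice after their values were seen. No mesenchyme list was counted for them, and the same choice by p also took up others, such as Dbp, Bambi and AU020206. Ptgfr, the receptor of prostaglandin F, stood at 6.31, 9.49, 8.56 and 9.53 CPM in WT and at 21.7, 14.9, 18.6 and 26.8 CPM in Kir. The groups did not overlap, at a log2 fold change of 1.27 ± 0.22 (SE), with an adjusted p of 0.616 by edgeR and 3.62e-04 by DESeq2. Sp7, the osteoblast transcription factor, stood at 1.46, 1.15, 1.36 and 2.69 CPM in WT and at 4.73, 6.38, 5.37 and 11.5 CPM in Kir, highest in replicate 4. Its log2 fold change was 2.06 ± 0.38 (SE), with an adjusted p of 0.731 by edgeR and 0.00112 by DESeq2.

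The same pattern without overlap held for transcription factors of facial mesenchyme, Prrx1 (log2 fold change 0.89 ± 0.20, SE), Alx1 (0.95 ± 0.26), Tbx15 (1.15 ± 0.31) and Tfap2b (0.89 ± 0.22). It held as well for Gli1, a target of hedgehog signalling, at 1.05 ± 0.24 and for Rspo3, a secreted enhancer of Wnt signalling, at 1.29 ± 0.28. None of these 6 passed by DESeq2 or by edgeR on the 8 libraries, while Prrx1, Alx1, Tbx15, Tfap2b and Rspo3 passed in the edgeR fit over all 47. Without WT P0 replicate 1 and Kir P0 replicate 4, that fit called none of them. The fibroblast list stood at 2420 to 4331 CPM in WT and 3344 to 10722 CPM in Kir, and the bone list at 424 to 998 and 747 to 4129 CPM. Both sums overlapped between the groups, where the genes named here did not. The part of these tissues in the result was not tested. Without WT P0 replicate 1 and Kir P0 replicate 4, Ptgfr had a log2 fold change of 0.99 and Sp7 of 1.64, each with an adjusted p of 1 by edgeR. DESeq2 called neither Ptgfr nor Sp7 without those libraries.

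By chromosome, genes with an unadjusted p below 0.05 and no overlap made up 0.124% to 1.05% of genes tested on the higher side. On the lower side they made up 0.184% to 1.46%. Chromosome 2 had 0.576% higher and 1.37% lower. Chromosome 13, at 1.46%, had the largest lower share, and chromosome 15, at 1.05%, the largest higher share. Over all genes, with no limit on p, 0.819% lay wholly above and 1.05% wholly below. Odorant receptors, which lay lower as a group, were counted in these shares and not set apart. Of chromosome 2, 5 genes of small p were named after their values were seen. Gm13328 (20235045 to 20236064) and Gm13935 (110418170 to 110419619) are processed pseudogenes, which share reads with their parent copies, so their counts are uncertain. Gm13328 stood at 0 to 0.18 CPM in WT and 1.81 to 3.24 CPM in Kir, with a log2 fold change of 4.21 ± 0.62 (SE) and adjusted p of 0.0736 by edgeR and 2.04e-04 by DESeq2. Gm13935 stood at 0.52 to 1.13 CPM in WT and 2.64 to 5.83 CPM in Kir (log2 fold change 2.44 ± 0.37, SE; adjusted p 0.269 by edgeR, 1.77e-04 by DESeq2). Both were still called by DESeq2 without WT P0 replicate 1 and Kir P0 replicate 4.

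Within a stretch of chromosome 2, Spred1 (117121374 to 117182279), an inhibitor of Ras signalling, stood at 69.0 to 93.7 CPM in WT and 108 to 149.9 CPM in Kir, a log2 fold change of 0.68 ± 0.14 (SE). Stard9 (120629121 to 120731895), a kinesin-like protein, stood at 7.60 to 14.4 CPM in WT and 20.1 to 24.3 CPM in Kir, at 1.01 ± 0.20. Chp1 (119547697 to 119587027), which binds a sodium-proton exchanger, lay the other way, at 104.5 to 134 CPM in WT and 71.1 to 91.8 CPM in Kir, at -0.45 ± 0.12. The groups did not overlap in any of these 3 genes, and none passed by edgeR on the 8 libraries. DESeq2 called Stard9 at an adjusted p of 0.00691, and the edgeR fit over all 47 called Stard9 (adjusted p 0.0373) and Chp1 (0.0488). Without WT P0 replicate 1 and Kir P0 replicate 4, neither of these fits called Stard9 or Chp1. Of the named chromosome 2 genes, those higher in Kir at P0 had the same direction over the later ages. Their mean log2 fold change there was 1.02 for Spred1, 0.68 for Stard9, 4.57 for Gm13328 and 2.98 for Gm13935. For Chp1 the value over the later ages is not given here.

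Interferon-stimulated genes, the cell's antiviral program induced through the interferon receptor, showed no difference at P0 larger than the spread between libraries. Many of these genes carry a short repeated core, GAAANNGAAA, near their start, which IRF factors bind. To show it, 4 promoters of the list are printed, those of smallest p for P0 against the later ages among members with a match in the window. They are the 250 bases before the start of each gene from RefSeq on GRCm38.p6, in the gene's own direction, with matches in capitals (TTTCNNTTTC is the same core on the other strand, and overlapping matches run together).
Gbp3: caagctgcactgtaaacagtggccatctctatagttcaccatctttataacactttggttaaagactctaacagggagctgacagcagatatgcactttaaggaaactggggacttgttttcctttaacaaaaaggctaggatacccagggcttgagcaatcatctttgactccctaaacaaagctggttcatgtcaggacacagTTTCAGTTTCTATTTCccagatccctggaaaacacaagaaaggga
Bst2: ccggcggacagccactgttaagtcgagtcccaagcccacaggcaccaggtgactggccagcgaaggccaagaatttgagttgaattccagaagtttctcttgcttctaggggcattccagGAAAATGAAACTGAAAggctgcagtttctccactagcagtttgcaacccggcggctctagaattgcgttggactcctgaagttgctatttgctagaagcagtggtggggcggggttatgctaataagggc
Irgm1: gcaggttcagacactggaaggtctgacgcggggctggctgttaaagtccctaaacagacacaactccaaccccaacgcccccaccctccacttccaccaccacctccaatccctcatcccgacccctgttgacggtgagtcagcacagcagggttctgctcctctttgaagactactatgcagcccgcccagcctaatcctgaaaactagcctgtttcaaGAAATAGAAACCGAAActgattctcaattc
Oas1a: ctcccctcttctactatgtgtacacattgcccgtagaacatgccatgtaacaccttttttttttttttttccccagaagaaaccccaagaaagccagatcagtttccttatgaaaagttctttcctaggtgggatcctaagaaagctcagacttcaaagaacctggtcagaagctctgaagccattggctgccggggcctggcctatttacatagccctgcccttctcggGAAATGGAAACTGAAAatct

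The windows lie at chr3:142559794-142560043 on the plus strand for Gbp3, a guanylate-binding GTPase, and at chr8:71537473-71537722 on the minus strand for Bst2, the membrane protein tetherin. They lie at chr11:48871421-48871670, minus strand, for Irgm1, an immunity-related GTPase, and at chr5:120907526-120907775, minus strand, for Oas1a, an oligoadenylate synthetase that senses double-stranded RNA. Each window holds 2 overlapping matches, 45 to 30 bases before the start in Gbp3, 130 to 115 in Bst2, 30 to 15 in Irgm1 and 20 to 5 in Oas1a. On both strands, the core is present in such a window in 16 of the 28 interferon-stimulated genes with a RefSeq promoter entry (57.1%; 40 genes are on the list), and in 936 of 27025 genes in all (3.46%). A match is a description of the sequence.

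At P0 these 4 genes were at like levels in both groups. Gbp3 stood at 4.85, 8.42, 6.05 and 7.11 CPM in WT and at 8.83, 5.64, 5.44 and 5.98 CPM in Kir. Bst2 stood at 10.9, 19.3, 10.9 and 24.8 CPM in WT and at 22.2, 9.90, 14.9 and 17.8 CPM in Kir. Irgm1 lay at 12.4 to 26.2 and 18.1 to 20.9 CPM, and Oas1a at 1.62 to 6.15 and 2.73 to 6.19 CPM. Of the 40 genes on the list, all tested, 0 were called and 0 reached an unadjusted p below 0.05 by edgeR, 0 were called by DESeq2, 0 had groups that did not overlap, and the median log2 fold change was 0.03. The summed level was 449, 724, 567 and 736 CPM in WT and 808, 519, 559 and 576 CPM in Kir, highest in a Kir and lowest in a WT library with the others interleaved. The interferon genes Ifnb1, Ifna2, Ifna4, Ifng, Ifnk, Ifnl2 and Ifnl3 had no count in any of the 8 libraries.

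The Kir minus WT difference at P0 was unlike that at the later ages in 132 of 19927 genes (0.662%), by a single edgeR contrast of P0 against the mean of the other 6 ages over all 47 libraries. At P0 it was lower in 109 genes (0.547%) and higher in 23 (0.115%). Of the 40 interferon-stimulated genes 36 were lower at P0 than later, as were 10 of 20 class I antigen presentation genes and 7 of 14 nucleic acid sensor genes tested. In the same fit the median log2 fold change of the 40 was 0.04 at P0, 2.02 at P3, 1.53 at P5, 2.16 at P7, 3.56 at P10, 3.30 at P14 and 3.31 at P21. Of the 40, 0 were called higher in Kir at P0, 10 at P3, 0 at P5, 3 at P7, 39 at P10, 38 at P14 and 37 at P21. The number of all genes called higher also varied between ages, at 77, 35, 4, 13, 564, 153 and 129 in the same order. The later ages differ in title prefix, which entered the fit, and the Kir groups of some later ages mix libraries of high and low Kcnj2, at 132 to 959 CPM at P3, 146 to 1140 CPM at P7 and 209 to 1050 CPM at P21.

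Rtp4, a chaperone of receptor trafficking that interferon induces, had a log2 fold change of -0.22 ± 0.40 (SE) at P0 and 2.95 ± 0.19 over the later ages, a difference of -3.17 ± 0.44 with an adjusted p of 7.54e-04 by edgeR. For Xaf1, an interferon-induced regulator of apoptosis, the difference was -2.97 ± 0.45, and for Irf9, an interferon-regulated transcription factor, -1.55 ± 0.26. For B2m, the light chain of class I molecules, it was -1.94 ± 0.31, and for H2-K1, a class I heavy chain, -1.86 ± 0.30. All 5 had adjusted p below the threshold of 0.05 by edgeR, the highest being 0.00405 for Irf9. At P0 B2m stood at 83.2 to 134 CPM in WT and 75.1 to 130.2 CPM in Kir.

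Of the 23 genes higher at P0 than later, 9 were skeletal muscle genes. Sln, Mylpf and Atp2a1, genes of muscle contraction and calcium uptake, had differences of 7.17 ± 1.86, 5.39 ± 1.05 and 3.36 ± 0.71 (log2 ± SE). All 3 had their highest value in Kir P0 replicate 4. Outside muscle, Mfge8, a secreted factor that bridges apoptotic cells to phagocytes, had a difference of 0.64 ± 0.13, and Pcdhb22, a clustered protocadherin, 0.60 ± 0.12. Among the mesenchyme and bone genes named above, Ptgfr (1.11 ± 0.27, adjusted p 0.0381 by edgeR) and Sp7 (1.85 ± 0.44, adjusted p 0.029) were also higher at P0 than later. For S100a5 the difference was -0.52 ± 0.27 and did not pass (adjusted p 0.709 by edgeR).

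The count of 132 moved with single libraries. It was 62 without Kir P0 replicate 4, 87 without WT P0 replicate 1, 211 without WT P0 replicate 2, 210 without WT P0 replicate 3 and 224 without WT P0 replicate 4. Without WT P0 replicate 1 and Kir P0 replicate 4 it was 76, all of them lower at P0 and 0 higher, so no muscle gene was called, and Ptgfr and Sp7 had adjusted p of 0.659 and 0.602 by edgeR. The interferon-stimulated genes lower at P0 numbered 30 of 40 in that fit, and between 23, without Kir P0 replicate 4, and 37 over the settings tried. Of the 109 genes lower at P0, 83 had a RefSeq promoter entry, and 31 of these (37.3%) held the GAAANNGAAA core in the window. Among all genes tested in that fit the share was 3.46%. Of the 31 genes, 15 are on the interferon-stimulated list, whose share is given above.

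**Figure D5:**
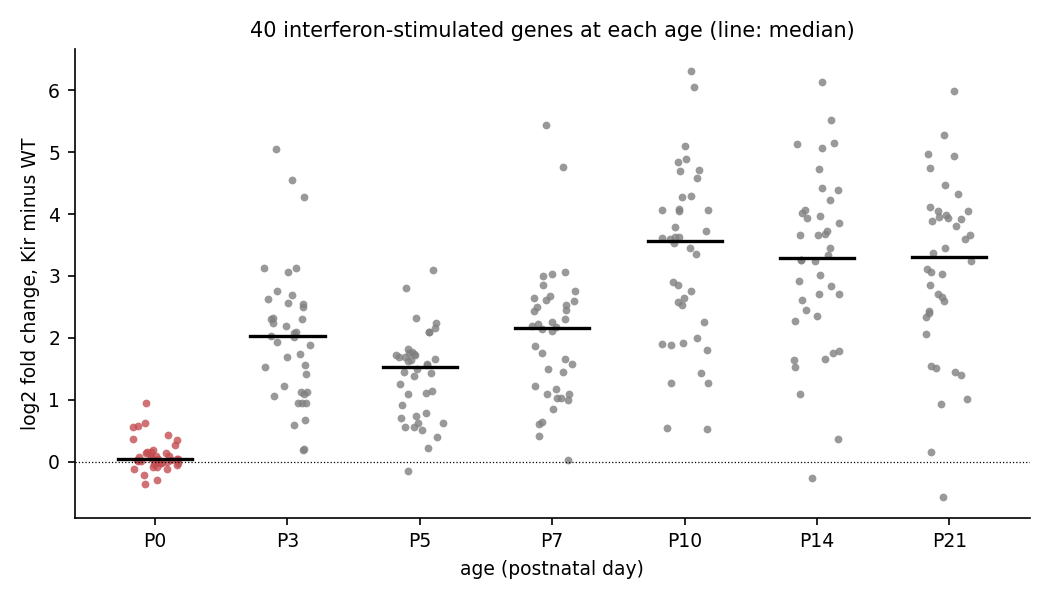
Log2 fold change, Kir minus WT, of 40 interferon-stimulated genes at each age in the fit of all 47 libraries; each point is a gene and the line is the median. At P0 the points lie around a median of 0.04, and at P10, P14 and P21 around medians of 3.56, 3.30 and 3.31.

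Other immune and stress lists gave no call at P0. Of 19 macrophage genes 2 were higher at an unadjusted p below 0.05, where 1.53% of all genes were. Without WT P0 replicate 1 and Kir P0 replicate 4, 0 were. The summed level of the macrophage list was 458.6 to 571.4 CPM in WT and 338.6 to 673.2 CPM in Kir. Class I and class II antigen presentation, chemokine, complement and neutrophil genes had medians between 0.01 and 0.34 (log2) with summed levels that overlapped. Of 18 stress and apoptosis genes and 14 nucleic acid sensors 0 reached that p.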

How the data were processed

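Polyadenylated RNA of olfactory epithelium was sequenced from TRIzol extracts, per the labels' protocols. The authors deposited a table of whole-number gene counts and a table of TPM values, over 54532 genes; bcl2fastq 2.18, STAR 2.6.1c, RSEM and build mm10 were used, per the submitters' processing notes. The sources used here do not give the strand setting, so overlapping antisense genes cannot be told apart. In the deposited counts 4 lines name no gene and were left out: unmapped (3.95% to 14.88% of a library's reads), mapped to several places (9.27% to 13.1%), outside any gene (6.15% to 7.85%) or ambiguous (2.93% to 3.57%).

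Gene counts ran from 9684661 to 13945732 per P0 library. The 8 P0 libraries alone were compared in edgeR 4.0.16 (R 4.3.3), with two-sided quasi-likelihood F tests, TMM factors, filterByExpr and Benjamini-Hochberg adjustment; "called" means an adjusted p under 0.05. P0 was set against the mean of the other 6 ages in a fit of all 47 libraries with a mean per group and the title prefix as covariate. DESeq2 1.42.0, limma 3.58.1 on log2 of the deposited TPM plus 1 or 0.1, limma voom, other scalings and filters, and fits without single libraries were alternatives. The code was tested on simulated counts. Positions are those of GENCODE M21 (54495 identifiers matched).

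Genes and 46 lists were chosen with earlier results of these data known. Named genes were Kcnj2 and S100a5, the largest called changes of at least 5 CPM, up to 4 called genes per list or else its 2 of highest level, the 5 of smallest adjusted p in each direction for P0 against later ages, and the 3 highest of each list of another tissue in the library richest in it. Replicate numbers were not taken to pair libraries.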

Additional observations from a re-analysis of the deposited data

Results flagged for a closer look

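In 97 gene list sums and genes, each group of 4 was examined for a library far from the rest. Sums and their members are not independent, and some genes were chosen for a high level in the library richest in their list. The count was therefore not set against chance. In 21 of 194 groups, 1 library's gap to its neighbour, as a share of the group's range, exceeded Dixon's critical value. Kir P0 replicate 4 was such a library 8 times, for the sums of skeletal muscle (2889.7 CPM), bone (4128.5 CPM) and squamous epithelium genes (8778.2 CPM) and for Acta1 (689.4 CPM), Myh8 (462.85 CPM), Mylpf (371.27 CPM), Col1a1 (3163.6 CPM) and Gli1 (14.516 CPM). WT P0 replicate 1 was apart for brain neuron genes (1294.8 CPM) and Slc17a7 (164.19 CPM). WT P0 replicate 4 was apart for endothelial (401.4 CPM) and fibroblast sums (4331.4 CPM), for Pcdh10 (144.38 CPM, low) and for Ighv1-62, an immunoglobulin pseudogene (0.087 CPM, with 0 in the other WT libraries). WT P0 replicate 2 was high for Lrrc3b (28.901 CPM), Kcnj5 (34.575 CPM) and Pcsk1 (26.596 CPM), WT P0 replicate 3 for Chp1 (133.61 CPM), and Kir P0 replicate 2 for Nphs1 (1.666 CPM), Gm13328 (3.239 CPM) and Ighv1-62 (3.516 CPM).

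The Kir minus WT difference at P0 was unlike that of the other 6 ages in 132 genes by edgeR's contrast. Among these were 36 interferon-stimulated genes, 10 class I antigen presentation genes and 7 nucleic acid sensors lower at P0, where 5 listed sensors are also on the first list, and 9 skeletal muscle genes higher at P0. As log2 differences, P0 minus the other ages, Rtp4 stood at -3.167, Xaf1 at -2.971, B2m at -1.937, H2-K1 at -1.863 and Irf9 at -1.551, while Sln stood at 7.174, Mylpf at 5.390, Atp2a1 at 3.358, Sp7 at 1.846, Ptgfr at 1.107, Mfge8 at 0.6367 and Pcdhb22 at 0.5984. The skeletal muscle list summed to 26.3 to 55.5 CPM in the 7 P0 libraries other than Kir P0 replicate 4.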

How the results depend on the processing

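Kcnj2 alone was called at P0 with DESeq2 size factors, upper-quartile factors, a minimum of 1 CPM, robust empirical Bayes, log2(TPM + 0.1) and the fit without both WT P0 replicate 1 and Kir P0 replicate 4. Leaving out 1 library at a time gave 1 to 3 genes, all higher (0 lower). The count was 3 (3 higher) with no filter on low counts, 3 (3 higher) with limma voom and sample quality weights, 2 (2 higher) with log2(TPM + 1), 16 with DESeq2 (9 higher, 7 lower) and 218 in the fit of all 47 libraries (77 higher, 141 lower). Without those 2 libraries, a choice made after seeing the data, DESeq2 called 6 (3 higher, 3 lower) and the fit of all others 19 (1 higher, 18 lower). In those same fits S100a5 passed, at log2 fold changes of -1.65 (DESeq2, adjusted p 1.77e-04), -1.64 (all 47 libraries), -1.64 (DESeq2 without the 2) and -1.65 (all others). With 1 library left out it was -1.84 to -1.49 (edgeR adjusted p 0.379 to 1), and Kcnj2 was 3.25 to 3.42.

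Muscle and brain genes reversed with the library that held them. Acta1 was -0.65 without Kir P0 replicate 4 (up to 5.89 with another library left out), and -0.88 (edgeR), -0.87 (DESeq2) and -0.88 (all others) without both libraries; Myh8 was -4.06 without Kir P0 replicate 4 (up to 6.97), and -4.23 (DESeq2) and -4.12 (all others) without both; Mylpf was -0.73 (up to 5.51), -0.79, -0.79 and -0.80 and, P0 minus later ages, -0.44 without Kir P0 replicate 4 (up to 5.80) and -0.52 without both. Slc17a7 was 0.16 without WT P0 replicate 1 (down to -5.22) and 0.41, 0.42 and 0.41 without both. Over the 49 single genes, 1005 values kept their direction and side of the threshold, 51 passed it in addition, and 15 reversed.

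For P0 against later ages, the count was 227 with no filter (48 higher, 179 lower), and leaving out 1 P0 library gave 62 to 224 in all, 4 to 61 higher and 56 to 196 lower. Without both libraries it was 76, with 0 higher.

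Same-numbered libraries did not deviate together (r = -0.288, 0.333, -0.067 and -0.100 for numbers 1 to 4). The replicate block called 1 gene, Kcnj2 (log2 fold change 3.33, adjusted p 0.00193 by edgeR), and left S100a5 at -1.67 (adjusted p 0.11). Depth limits genes of low level, such as odorant receptors, of which 597 of 1094 had counts enough to be tested.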
